A study of Mus musculus with 8 samples.

Results

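Trp63 encodes p63, a transcription factor of the p53 family, and Tfap2a, Tfap2b and Tfap2c encode the AP-2 transcription factors alpha, beta and gamma. The probe table held 12 probesets annotated to exactly 1 of these 4 symbols, of 45101 probesets on the array, and 0 annotated to a member together with another symbol. Trp63 had 4 probesets, Tfap2a 3, Tfap2b 2 and Tfap2c 3. A probeset is a group of short probes whose signals were summarised as 1 value. Each is described on its own, because the brightest Trp63 probeset moved against the other 3 between E14.5 and E16.5. The genes were chosen by that opposite movement in signal, so every member value for that interval is a description, with no test.

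RNA was measured in dorsal skin of wild-type mouse embryos at embryonic day (E) 14.5, 16.5 and 18.5, with 2, 3 and 3 arrays. The sources used here give no strain. Replicate numbers only name the arrays, and the titles carry number codes that the labels do not explain. The design follows gene regulation while the epidermis differentiates. Whether each array held a different animal is not stated, so SDs and p-values measure only the spread between these samples, which may be technical.

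The epidermis is built from a basal layer of dividing keratinocytes whose daughters move outwards and cornify. p63 is required for stratified epithelia to form, and mice without it lack a stratified epidermis. The gene is read from alternative promoters, which give TA and ΔN forms, and its transcripts are spliced to different 3′ ends. The ΔN forms are the main ones in basal keratinocytes. AP-2 factors bind GC-rich sites as dimers. AP-2 alpha and gamma are the forms best known in epidermis, where they act together in keratinocyte differentiation, and all 3 have roles in neural crest or other ectodermal tissues.

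The RefSeq annotation of GRCm38.p6 lists 11 transcripts for Trp63, 7 for Tfap2a, 8 for Tfap2b and 5 for Tfap2c. Which exon or transcript end a probeset reads was not analysed here, so no probeset is assigned to a TA, ΔN or 3′ form. The suffix _a_at, carried by 2 Trp63 probesets, marks probes shared by several transcripts of a gene, and _s_at, carried by 1 Tfap2a and 1 Tfap2c probeset, marks probes shared by several transcripts that may belong to related genes.

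Defining markers of the labelled tissue were present. All 7 basal keratinocyte markers, all 6 suprabasal markers and all 8 dermal fibroblast markers were above background on every E16.5 and E18.5 array, and at E14.5 that held for 6, 6 and 8 of them. Background was the 95th percentile of 80 olfactory and vomeronasal receptor probesets and lay between 33.6 and 92.2 per array. Control probesets set the 2 E14.5 arrays apart. Their beta-actin signal was 6.49 and 6.91 times as high near the 3′ end of the transcript as near the 5′ end, a ratio of 1.11 to 1.37 at E16.5 and E18.5. For Gapdh the E14.5 ratios were 2.96 and 3.03, those of E16.5 0.840 to 0.869 and those of E18.5 0.692 to 0.810. Background was 33.6 to 53.2 on the E16.5 arrays and 62.2 to 92.2 on those of E18.5. The later stages thus also differed without overlap in these array-wide measures, though by less in the control ratios. The part of this in the differences from E16.5 to E18.5 was not tested. In comparisons with E14.5, the stage cannot be told apart from how those arrays were prepared.

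The brightest Trp63 probeset, 1418158_at, was high at all 3 stages and lowest at E16.5. Its signal was 5926 and 7703 at E14.5. At E16.5 it was 2698, 3049 and 2630, and at E18.5 it was 4447, 6104 and 4085. Both E14.5 arrays lay above all E16.5 arrays, and so did all E18.5 arrays, while E14.5 and E18.5 overlapped. The log2 difference of (signal + 16), the scale of every log2 value here, was −1.27 ± 0.18 (SE) from E14.5 to E16.5. It was −0.84 under quantile normalization and −2.12 under median centring.

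The other 3 Trp63 probesets went the opposite way over that interval. Probeset 1451876_a_at read 8.22 and 1.91 at E14.5, below background on both arrays, then 660.8, 918.1 and 644.2 at E16.5. Probeset 1452027_a_at read 43.3 and 25.8, also below background on both, then 492.1, 623.1 and 437.7. Probeset 1459581_at read 59.8 and 41.5, below background on 1 of the 2 arrays, then 386.3, 382.4 and 426.5. With the higher of background and the measured signal as the E14.5 value, these were at least 12.3-fold, 8.69-fold and 6.05-fold higher at E16.5. The log2 differences were 5.16 ± 0.34, 3.41 ± 0.31 and 2.65 ± 0.29 (SE), and their size rests on the pseudocount, since the E14.5 signals lay at or near background. They were 7.14, 3.90 and 2.97 with a pseudocount of 1, and 3.53, 2.55 and 2.01 with one of 64. Under median centring they were 4.32, 2.56 and 1.80, and under quantile normalization 4.83, 2.72 and 1.83.

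**Figure D1:**
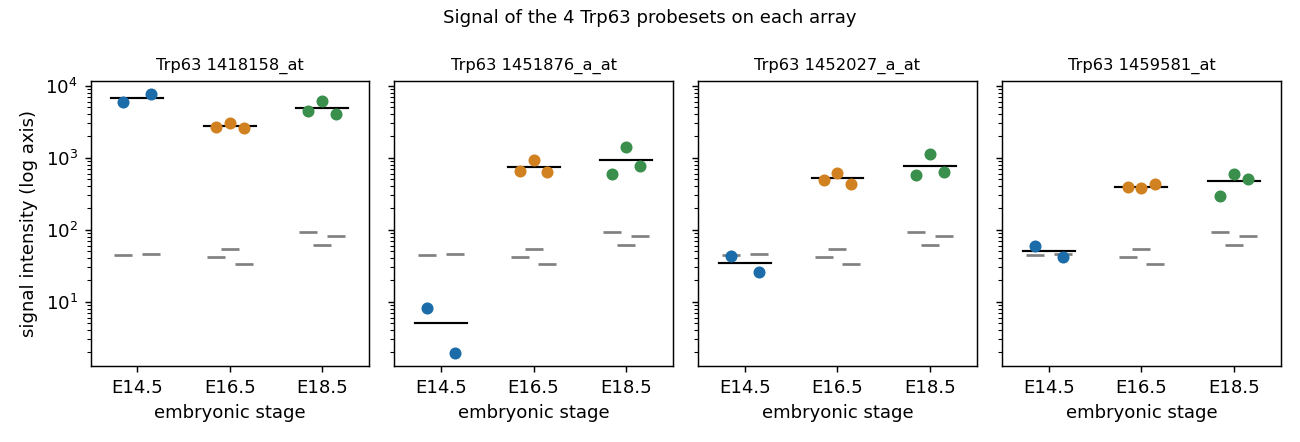
Signal intensity (log axis) of the 4 Trp63 probesets on each array by embryonic stage, with 2 arrays at E14.5 and 3 at each later stage. Points are arrays, black lines stage means and grey dashes the background of each array. Probeset 1418158_at has its lowest signals at E16.5, whereas the other 3 are at or near background at E14.5 and between 298 and 1425 on the later arrays.

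Probesets of a gene differ in how brightly they respond, so these shifts describe unequal change and not relative amounts of transcript. The 3′ over 5′ ratios of the control probesets differ between the same arrays, and their part in the shift was not tested.

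Opposite movement of probesets was common in this interval. Of 9010 genes with 2 or more probesets, 1846 (20.5%) had 1 probeset more than 2-fold higher and another more than 2-fold lower at E16.5. Between E16.5 and E18.5, 40 genes (0.444%) did. In that later interval the log2 differences of the 4 Trp63 probesets spanned 0.61, against a median span of 0.88 over the 1093 genes with 4 probesets. From E14.5 to E16.5 they spanned 6.44, against a median of 3.01 over the same genes, of which 3.4% had as wide a span. Trp63 was chosen by that movement, so its place among those genes is a description.

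Between E16.5 and E18.5 all 4 Trp63 probesets had positive differences, and 1 passed the test. limma called a probeset at a Benjamini-Hochberg adjusted p under 0.05 over 34945 probesets, of which it called 10.7%, with 6.27% higher and 4.44% lower at E18.5. These tests share their E16.5 arrays with the movement by which the genes were chosen, so a rise of 1418158_at from its low E16.5 level is not independent of that choice. Probeset 1418158_at rose 1.72-fold, from 2792 ± 225 to 4879 ± 1076 (SD, n = 3 each), a log2 difference of 0.78 ± 0.16 (SE, limma adjusted p = 0.0141). The call was lost without E16.5 replicate 1 (limma adjusted p = 0.0581) or replicate 3 (0.0692), under median centring (0.0506) and without a variance trend (0.0605).

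The remaining Trp63 probesets had wider spread at E18.5. Probeset 1451876_a_at read 587.9, 1425 and 776.6 there, a log2 difference of 0.24 ± 0.31 (limma adjusted p = 0.649). Probeset 1452027_a_at read 582.7, 1128 and 628.5 (0.53 ± 0.27, limma adjusted p = 0.241). Probeset 1459581_at read 297.7, 593.6 and 512.3 (0.17 ± 0.26, limma adjusted p = 0.708). In each of them the E16.5 and E18.5 arrays overlapped, and replicate 2 was the highest E18.5 array. Without that array the differences of 1451876_a_at and 1459581_at were −0.11 and −0.024, and that of 1452027_a_at was 0.23.

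E18.5 replicate 2 was the highest array of its stage for 10 of the 12 Trp63 and Tfap2 probesets and for all 4 of Trp63. It was the highest for 28.5% of all probesets. Of the 7 basal keratinocyte markers it was the highest for 1, and replicate 1 for 6. At E16.5 replicate 2 was the highest for 9 of the 12 probesets, and for 35.3% of all. These counts were noticed in the data and were not tested.

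Tfap2a, which encodes AP-2 alpha, had 3 probesets that followed 3 courses. Its brightest, 1426048_s_at, read 3252 and 3682 at E14.5, then 1660, 2117 and 2007 at E16.5 and 2012, 2154 and 1465 at E18.5. The E14.5 arrays lay above all later ones, by a log2 difference of −0.85 ± 0.18 (SE) from E14.5 to E16.5 (−0.58 under quantile normalization and −1.69 under median centring), and the later stages overlapped (−0.05 ± 0.16, limma adjusted p = 0.87). The sign of that second difference turned under quantile normalization and without E16.5 replicate 2 or E18.5 replicate 3.

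Probeset 1421996_at of Tfap2a read 1506 and 2293 at E14.5, 1265, 1487 and 1322 at E16.5 and 2418, 2632 and 1664 at E18.5. All E18.5 arrays lay above all E16.5 arrays, by 0.69 ± 0.20 on the log2 scale (limma adjusted p = 0.0513). That p was just above the threshold, and the probeset was called in 8 of 17 other settings, with adjusted p from 0.0143 to 0.161 over all 17. Probeset 1421995_at read 356.1 and 415.5 at E14.5, 512.8, 643.7 and 622.2 at E16.5 and 600.7, 583.3 and 521.5 at E18.5. It was lowest at E14.5, with a log2 difference of 0.60 ± 0.18 to E16.5 that turned to −0.060 under quantile normalization and −0.25 under median centring. The later stages overlapped (−0.05 ± 0.16, limma adjusted p = 0.853).

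Tfap2b, which encodes AP-2 beta, had 2 probesets that differed in sign in both intervals, and neither passed the test from E16.5 to E18.5. From E14.5 to E16.5 the log2 differences were −0.32 ± 0.18 for 1435670_at and 1.30 ± 0.30 for 1423340_at (SE). They were −0.57 and 0.48 under quantile normalization, and −1.17 and 0.45 under median centring. Probeset 1435670_at read 998.0 and 1178 at E14.5, 806.1, 934.9 and 852.8 at E16.5 and 1305, 1059 and 903.0 at E18.5. Its E16.5 arrays were the lowest on average, and they overlapped with those of E18.5 (0.31 ± 0.16, limma adjusted p = 0.227). Probeset 1423340_at read 234.2 and 184.2 at E14.5, 568.6, 506.0 and 531.2 at E16.5 and 237.5, 534.2 and 474.8 at E18.5. The low value of E18.5 replicate 1 stood close to those of E14.5, and the difference from E16.5 was −0.43 ± 0.27 (limma adjusted p = 0.336), or −0.084 without that array.

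Tfap2c, which encodes AP-2 gamma, had the largest fall of the 4 genes from E14.5 to E16.5, at 2 of its 3 probesets. Probeset 1436392_s_at read 6660 and 8047 at E14.5 and 703.4, 736.8 and 659.5 at E16.5, a 10.3-fold difference (log2 −3.36 ± 0.14 SE). Probeset 1418147_at read 5204 and 6614, then 504.3, 462.7 and 477.3, an 11.8-fold difference (log2 −3.56 ± 0.17). The third, 1448977_at, read 963.2 and 986.8, then 647.7, 837.9 and 809.9, a log2 difference of −0.35 ± 0.20. Median centring gave −4.21, −4.41 and −1.20 for the 3, and quantile normalization −3.15, −3.41 and −0.66. All E14.5 arrays lay above all E16.5 arrays at each of the 3, although the sizes differed by 3.21 log2 units.

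Of 5 markers of periderm and simple epithelium, 3 fell and 1 rose over the same interval, against 21.3% and 37.3% of all genes. The signals of the 5 added up to 8644 and 17310 on the E14.5 arrays, to 3241 to 4219 on those of E16.5 and to 4774 to 8749 on those of E18.5. The simple-epithelial keratin genes Krt8, Krt18 and Krt19 fell from E14.5 to E16.5 (log2 −3.28, −4.48 and −3.49, limma adjusted p up to 0.000263), and Krt17, a keratin of activated and follicular keratinocytes, rose by 2.44. On the 2 E14.5 arrays Krt8 read 6892 and 1745 and Krt18 5947 and 790.8, while Krt19 read 2637 and 2745 and Krt6a 1513 and 3019. At E18.5 Krt17 made up 4364 to 7405 of the sum. From E16.5 to E18.5 Krt17 rose and Krt19 and Krt6a fell (log2 1.51, −1.26 and −1.80, limma adjusted p up to 0.0244), and Krt8 and Krt18 had differences of −0.63 and 0.49 that did not pass the test. No Tfap2c probeset was near background at any stage. In whole skin, fewer cells of a type and less RNA per cell cannot be told apart, and the part of these markers in the Tfap2c values was not tested.

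The lowest adjusted p of the 12 probesets from E16.5 to E18.5 was at Tfap2c. Probeset 1436392_s_at rose 2.22-fold, from 699.9 ± 38.7 to 1578 ± 176 (SD, n = 3 each), with E18.5 signals of 1491, 1781 and 1462. Its log2 difference was 1.15 ± 0.13 (limma adjusted p = 0.000751), and it was called in all 18 other settings, with adjusted p from 0.000424 to 0.0131. Probeset 1418147_at rose 1.52-fold, to 678.2, 883.7 and 673.9 (0.60 ± 0.15, limma adjusted p = 0.0307). It was not called without any 1 of E16.5 replicates 1, 2 and 3 or E18.5 replicate 2, under median centring or without a variance trend (adjusted p up to 0.13). Probeset 1448977_at read 1132, 1181 and 791.0 at E18.5 and overlapped with E16.5 (0.41 ± 0.18, limma adjusted p = 0.157). It was called without E18.5 replicate 3 (adjusted p = 0.0334). At E18.5 the first 2 probesets remained below E14.5 on every array, by −2.21 ± 0.14 and −2.96 ± 0.17, whereas 1448977_at overlapped with E14.5. The first 2 differences were −3.23 and −3.98 under median centring, and −1.77 and −2.73 under quantile normalization.

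**Figure D2:**
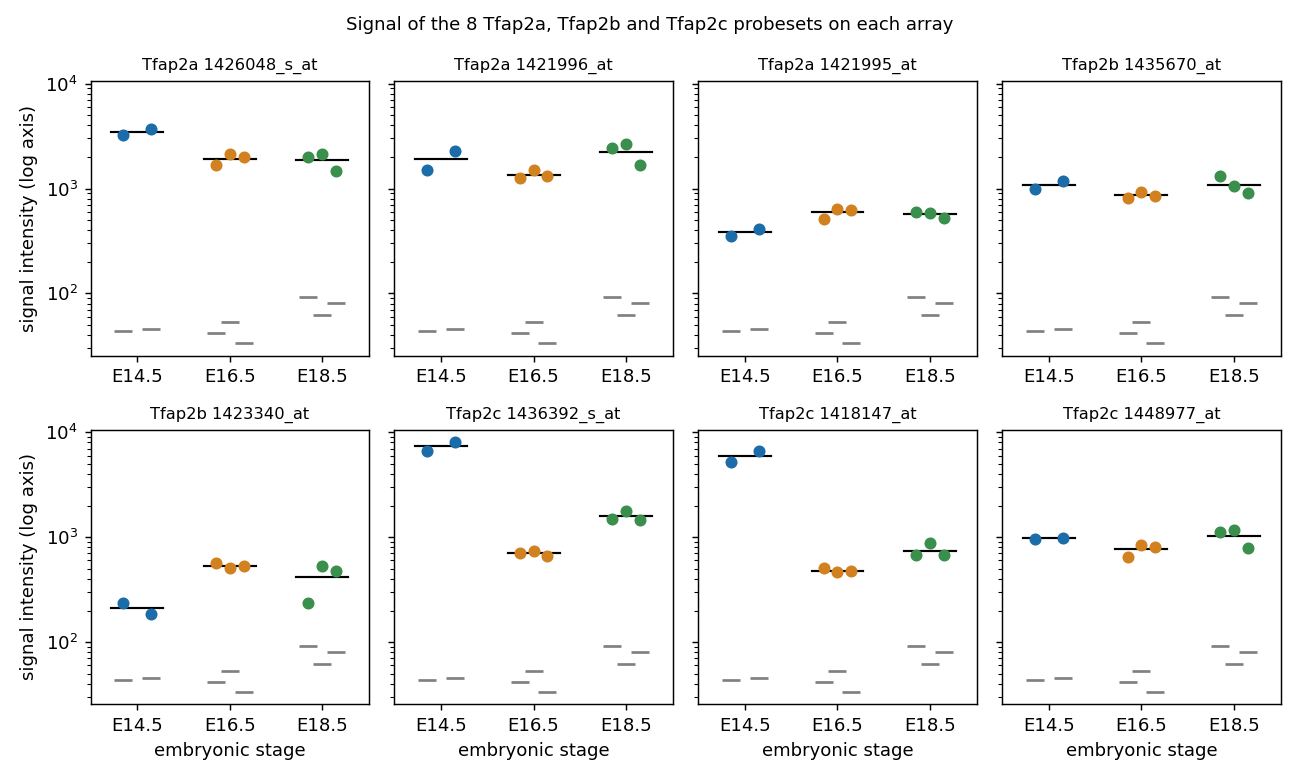
Signal intensity (log axis) of the 8 Tfap2a, Tfap2b and Tfap2c probesets on each array by embryonic stage. Points are arrays, black lines stage means and grey dashes the background of each array. Tfap2c 1436392_s_at and 1418147_at drop from between 5204 and 8047 at E14.5 to between 463 and 737 at E16.5, and the other probesets move less.

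Over all 12 probesets, 9 had positive and 3 negative differences from E16.5 to E18.5, with a median of 0.36 against 0.12 for all probesets. The 3 calls were rises, 25.0% of the 12, where 6.27% of all probesets were called higher. All 3 start from the E16.5 arrays of the movement by which the genes were chosen, so they are not independent of that choice. In 4 probesets, 1 of Trp63, 1 of Tfap2a and 2 of Tfap2c, every E18.5 array lay above every E16.5 array, as in 23.2% of all probesets, and in 0 every one lay below. Median centring moved the median of all probesets from 0.12 to −0.05 and quantile normalization to 0.0015. The share of called probesets that were higher at E18.5 was 58.5%, against 29.9% under median centring.

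From E14.5 to E16.5 the arrays of the stages did not overlap in any of the 12 probesets, with 5 higher and 7 lower at E16.5. Among all probesets 47.9% were higher and 25.8% lower without overlap, and limma called 57.6% in that interval, 38.9% higher and 18.7% lower. From E14.5 to E18.5 there were 5 higher and 3 lower without overlap, among 49.6% and 20% of all probesets. Nothing is read from these counts, since the genes were chosen by the first interval and the second shares its E14.5 arrays.

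**Figure D3:**
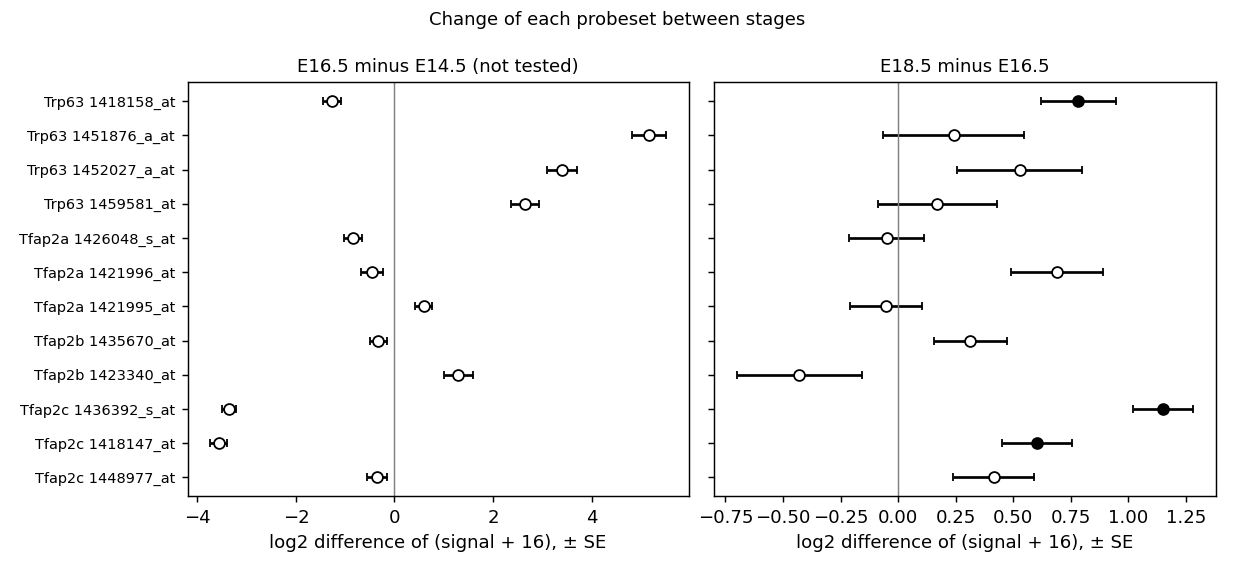
Log2 difference of (signal + 16), with its SE, for the 12 probesets from E14.5 to E16.5 (left, not tested) and from E16.5 to E18.5 (right, on a narrower axis). Filled points on the right passed limma's test at an adjusted p under 0.05, and these are Trp63 1418158_at and Tfap2c 1436392_s_at and 1418147_at. The 3 rightmost points on the left are Trp63 probesets at or near background at E14.5, whose size there rests on the pseudocount.

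Probesets of a gene were also compared with each other from E16.5 to E18.5. In each array the log2 signal of the other probeset was subtracted from that of the gene's brightest, giving 8 pairs. With 3 arrays against 3 the exact two-sided permutation test cannot go below p = 0.1, which is 0.133 after adjustment over the 8 pairs as obtained here. The difference did not overlap between stages in 6 of 8 pairs, against 35.9% of such pairs over all genes, and each of those 6 had an exact permutation p = 0.1. Pairs of a gene share its brightest probeset, so the 8 are not independent. The Trp63 pairs also share their E16.5 arrays with the movement by which the genes were chosen. Nothing is therefore read from this count.

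The brightest Trp63 probeset gained 0.54 on 1451876_a_at and 0.61 on 1459581_at, both without overlap, and 0.25 on 1452027_a_at with overlap (exact permutation p = 0.2). The brightest Tfap2c probeset gained 0.55 on 1418147_at and 0.74 on 1448977_at. In Tfap2b the brightest gained 0.74, with E18.5 values of 2.38, 0.97 and 0.91 against 0.49 to 0.87 at E16.5. In Tfap2a, the brightest lost 0.74 against 1421996_at and differed by 0.0044 from 1421995_at.

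Levels were also set against the mean log2 signal of 7 basal keratinocyte markers (Krt5, Krt14, Krt15, Col17a1, Itgb4, Itga6 and Cdh3). All 7 also stand in the list of basal and adhesion targets of p63 below, and Krt5 and Krt14 in that of AP-2 targets. The markers are therefore not a measure of basal cells independent of p63 and AP-2. That mean was 9.95 and 10.15 on the E14.5 arrays, 11.81, 11.96 and 11.94 on those of E16.5, and 12.28, 12.11 and 11.92 on those of E18.5. Relative to it, Trp63 1418158_at was −0.40, −0.38 and −0.57 at E16.5 and −0.16, 0.47 and 0.08 at E18.5. The stages did not overlap, and the difference was 0.58 (exact permutation p = 0.1, the smallest possible, or 0.24 over the 12 probesets). It starts from the E16.5 arrays of the movement by which the genes were chosen, so it is not independent of that choice. Tfap2c 1436392_s_at differed by 0.95 and Tfap2a 1421996_at by 0.49, and Tfap2b 1423340_at and Tfap2a 1421995_at by −0.63 and −0.26, also without overlap. Such lack of overlap was seen in 31.9% of all probesets measured the same way, so the 5 of 12 stood near that share.

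Of the closest relatives of the 4 genes, Trp73, Tfap2d and Tfap2e were measured, and Trp53 was not analysed here. Trp73, which encodes the p53 relative p73, read 37.2 and 49.9 at E14.5, above background on 1 array, then 231 to 279 on the E16.5 arrays and 266 to 496 on those of E18.5. Tfap2e, encoding AP-2 epsilon, read 43.5 and 87.8, then 95.6 to 197 and 282 to 424. From E16.5 to E18.5 neither passed the test (0.48 ± 0.25 and 1.00 ± 0.33, limma adjusted p = 0.256 and 0.0821), although 1 of the 3 relatives had an unadjusted p under 0.05. Tfap2d, encoding AP-2 delta, was below background on all 8 arrays.

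The wider pathways were read from the brightest probeset of each gene, and other probesets of the listed genes were not examined. From E14.5 to E16.5, 20.5% of genes with 2 or more probesets had them moving over 2-fold both ways. List counts for that interval may therefore depend on the probeset taken, and they carry the offset of the E14.5 arrays. Of 13 genes for regulators of p63, such as the ubiquitin ligases Itch, Wwp1 and Fbxw7, limma called 0 from E16.5 to E18.5 at the adjusted threshold, and 2 had an unadjusted p under 0.05. Under quantile normalization 1 rose, and under median centring 1 fell. Their median log2 difference was −0.07, against 0.12 for all genes. Among all 18193 genes, 6.9% were called higher and 5.23% lower. In the earlier interval, 6 of the 13 rose and 5 fell, against 37.3% and 21.3% of all genes, and under median centring 4 rose and 7 fell.

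Of 10 genes for cofactors and inhibitors of AP-2, 2 fell from E16.5 to E18.5 and 0 rose. Of all genes, 5.23% were called lower and 6.9% higher. Cited4, a coactivator of AP-2, fell by 1.11 ± 0.21 on the log2 scale (limma adjusted p = 0.00846), which was not called when E16.5 replicate 1 or 3 was left out (adjusted p up to 0.0554). Its signals were 687, 536 and 584 at E16.5 and 304, 263 and 241 at E18.5. Ep300, a histone acetyltransferase, fell by 0.87 ± 0.13 (limma adjusted p = 0.00366) and was called in all 18 other settings. Between the first stages, 5 of the 10 rose and 2 fell, against 37.3% and 21.3% of all genes, or 4 and 4 under median centring.

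Genes for basal and adhesion targets of p63, such as the basal keratins Krt5 and Krt14, mostly did not pass the test after E16.5. Of 19, 2 rose and 0 fell from E16.5 to E18.5, where 6.9% of all genes were called higher and 5.23% lower. The basal keratinocyte markers used above are all among these 19. Their median was 0.14, and −0.03 under quantile normalization and median centring. Each of those scalings also gave 1 fall. Dst, which encodes the hemidesmosomal plakin BPAG1, rose 1.78-fold (0.83 ± 0.15, limma adjusted p = 0.00778) and was called in all 18 other settings. Dsc3, encoding the desmosomal cadherin desmocollin-3, rose 1.41-fold (0.50 ± 0.13, limma adjusted p = 0.0358), but was not called in 7 of 18 other settings, among them those without E16.5 replicate 1, 2 or 3 or E18.5 replicate 2 (adjusted p up to 0.182). Before that, 14 of the 19 rose and 4 fell between E14.5 and E16.5, against 37.3% and 21.3% of all genes. Under median centring 13 rose and 6 fell. Krt14 rose by 1.71 ± 0.13 and Col17a1, encoding a hemidesmosomal collagen, by 3.85, whereas Dsc3 fell by 1.03 ± 0.15, and these 3 were chosen after their values were seen.

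Among transcription factors, signalling genes and other regulators listed as p63 targets, 8 of 24 fell from E16.5 to E18.5 and 0 rose. The counts were 8 and 0 under quantile normalization and median centring too, and the median was −0.25. Of all genes, 5.23% were called lower and 6.9% higher. Grhl3, a Grainyhead factor of barrier formation, fell 3.47-fold, from 2103, 2445 and 2573 to 670, 934 and 478 (log2 −1.80 ± 0.22, limma adjusted p = 0.00127), and was called in all 18 other settings. Dlx5, a homeobox factor, fell 3.13-fold, from 1075, 1005 and 949 to 299, 593 and 166 (−1.65 ± 0.34, limma adjusted p = 0.0143), and was not called without any 1 of the 3 E16.5 arrays (adjusted p up to 0.0574). The other 6 were Ovol1, Sfn, Notch1, Cdkn1c, Smarca4 and Kmt5a, named here after their values were seen. In the earlier interval, 16 of the 24 rose and 6 fell, against 37.3% and 21.3% of all genes, or 9 and 8 under median centring. Grhl3 was higher at E16.5 than at E14.5 by 2.90 ± 0.25.

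Of 14 genes listed as AP-2 targets, 1 rose and 4 fell from E16.5 to E18.5, with a median of −0.07. Of all genes, 6.9% were called higher and 5.23% lower. Cdh1, encoding E-cadherin, rose 1.67-fold (0.74 ± 0.14, limma adjusted p = 0.0097), but was not called when E16.5 replicate 3 was left out or no variance trend was fitted (adjusted p up to 0.0554). Igfbp5, a binding protein of insulin-like growth factors, fell 2.24-fold (−1.16 ± 0.19, limma adjusted p = 0.00446) and was called in all 18 other settings. Notch3, a Notch receptor of vessels and other tissues, fell 1.68-fold (−0.75 ± 0.16, limma adjusted p = 0.0175), but was not called without a variance trend or any 1 of the 3 E16.5 arrays (adjusted p up to 0.0727). Cebpa and Kit also fell, and both were named after their values were seen. Between E14.5 and E16.5, 9 of the 14 rose and 2 fell, against 37.3% and 21.3% of all genes, or 7 and 5 under median centring.

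**Figure D4:**
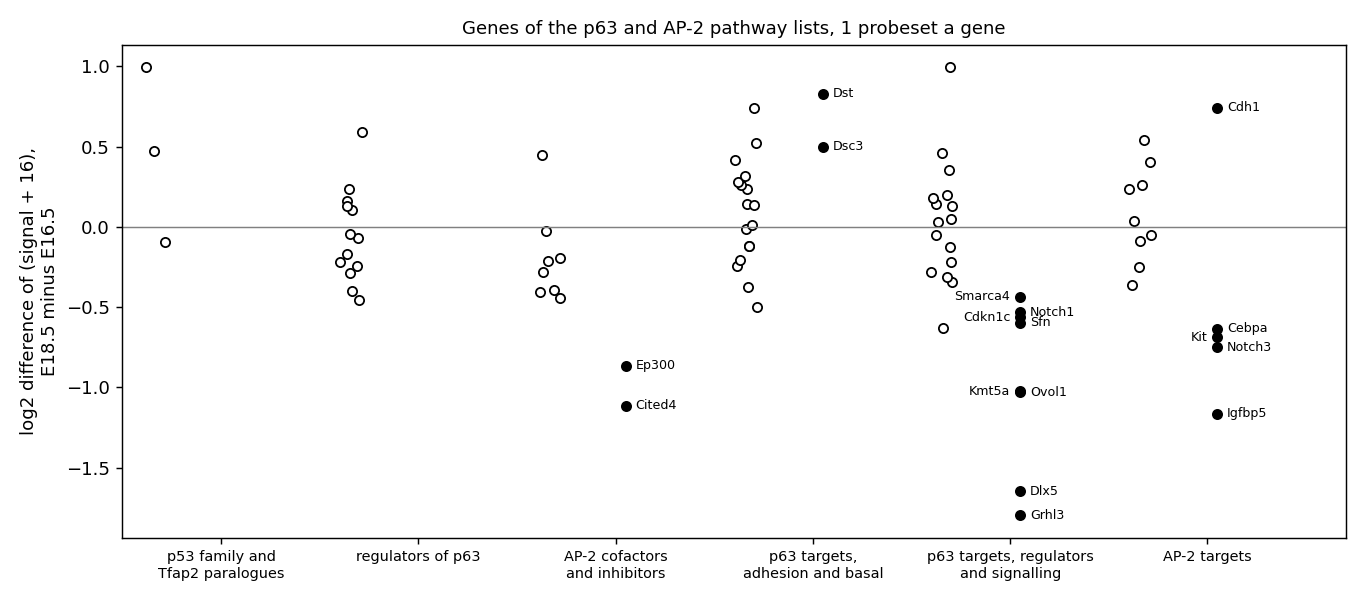
Log2 difference of (signal + 16) from E16.5 to E18.5 (y axis) for genes of the 6 p63 and AP-2 lists (x axis), 1 probeset a gene. Filled, named points passed limma's test and open points did not. In the list of regulators and signalling genes all 8 filled points lie below 0.

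Melanocyte and nerve markers, cell types in which AP-2 genes can be expressed, also moved. The summed signal of 6 melanocyte markers, each above background on every array, ranged over the arrays from 4120 to 5814 for E14.5, from 3415 to 4829 for E16.5 and from 7548 to 12610 for E18.5. In the last interval 4 of the 6 rose, or 3 under median centring, where 6.9% of all genes were called higher and 5.23% lower. The 4 were Dct, Tyrp1, Pmel and Mlana, whereas Mitf and Sox10 had log2 differences of 0.12 and −0.28 that did not pass the test. Dct read 3712 to 6139 on the E18.5 arrays, a large part of the sum. Of 5 nerve and Schwann cell markers, Ngfr, a neurotrophin receptor gene, fell in the last interval (log2 −1.20, limma adjusted p = 0.00341) and 0 rose. The summed ranges of the 5 were 3459 to 3695, 4215 to 4957 and 3331 to 4189, of which Erbb3 made up 2724 to 3384 over the 8 arrays (−0.09 in the last interval, limma adjusted p = 0.663). Foxd3 and Tubb3 were below background on both E14.5 arrays, and S100b on all 3 E18.5 arrays. Their part in the Tfap2a and Tfap2b values was not tested.

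Genes with the most similar course over the 8 arrays were ranked by the root-mean-square difference between log2 profiles, each centred on its own mean, among 13228 genes with a mean above background. For Trp63 1418158_at the nearest were Prorsd1 (0.096), Aldh6a1 (0.129) and the gap junction gene Gja1 (0.135), against a median of 0.893. For Tfap2a 1426048_s_at they were Hhat (0.096), Litaf (0.106) and Dcaf5 (0.131), and for Tfap2b 1435670_at Zc3h8 (0.056), Cct7 (0.078) and Polg2 (0.091). For Tfap2c 1436392_s_at they were Phf6 (0.153), Sharpin (0.170) and Gnl2 (0.172), against a median of 1.58. These profiles share the arrays, and with them the offset of E14.5.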

How the data were processed

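The deposited values are linear signal intensities, 1 per probeset and array. The submitters' processing notes name Expression Console 1.1 (Affymetrix) and PLIER 2.0, in roles unknown here, and the authors' background correction and normalization are unknown here too. Per the labels' protocols, RNA was extracted with Trizol and labelled with biotin after random-hexamer amplification, a whole-transcript method, although the probe table is that of a 3′ expression array. Of 45101 probesets, 34945 carried 1 symbol and were no control, for 18193 genes. limma 3.58.1 (R 4.3.3) was run on log2(signal + 16) of all 8 arrays, with 1 mean for each stage and eBayes with a variance trend, and p-values were adjusted over all 34945 probesets. Pairs of probesets and levels relative to basal markers were tested by exact permutation (SciPy 1.17.1). The number of arrays limits the precision. The limma fit was checked on simulated arrays with independent noise and no array-wide offset, so that check does not cover offsets such as those of E14.5.

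The genes and lists were chosen with earlier results of these data known. Named were all 12 probesets, the 3 measured relatives, of each list up to 2 called rises and 2 called falls from E16.5 to E18.5 by size, and for each gene's brightest probeset the 3 genes most alike. The other settings run were median centring, quantile normalization, pseudocounts of 1 and 64, a filter on dim probesets, other variance settings, array weights, only the stages compared, 1 probeset a gene and each array left out.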

Additional observations from a re-analysis of the deposited data

How the results depend on the processing

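From E16.5 to E18.5 the count of probesets called was 3742, against 2435 without a variance trend, 2392 with 1 probeset a gene and 1208 to 4120 with 1 array left out, lowest without E16.5 replicate 3. Of the 12 Trp63 and Tfap2 probesets 3 were called, against 1 under median centring or without a variance trend and 1 to 5 with 1 array left out. Of the pathway genes 17 were called, against 9 without a variance trend and 6 to 20 with 1 array left out. The number of the 12 higher at E18.5 than at E14.5 was 7, and 3 under median centring.

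Signs turned as follows, and the cause was not tested. From E16.5 to E18.5, Tfap2a 1426048_s_at was 0.020 under quantile normalization and −0.16 to 0.12 with 1 array left out, and Tfap2a 1421995_at was −0.15 to 0.0063. Trp63 1459581_at was −0.001 under median centring and −0.024 to 0.46 with 1 array left out, Trp63 1451876_a_at was −0.11 to 0.52, and Tfap2d, below background, −0.29 to 0.072. From E14.5 to E16.5, Tfap2a 1421995_at was −0.060 under quantile normalization and −0.25 under median centring. From E14.5 to E18.5 it was −0.097 and −0.48, Tfap2a 1421996_at was −0.78 under median centring and −0.061 to 0.54 with 1 array left out, and Tfap2b 1423340_at was −0.15 under median centring. Over that interval Tfap2c 1448977_at (0.06) was −0.13 under quantile normalization, −0.96 under median centring and −0.042 to 0.24 with 1 array left out, and Tfap2b 1435670_at (−0.01) was −0.15 to 0.11 with 1 array left out. No paired analysis was possible because the labels give no replicate numbers shared between stages.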
